A study of Mus musculus with 34 samples.

Results

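Integrins, laminins and the proteins of the hemidesmosome hold epithelial cells to the basement membrane. Open chromatin at 41 genes of this adhesion system was described in mouse hair follicle stem cells (HFSCs) with ATAC-seq, a method that inserts sequencing adapters into accessible DNA by means of a transposase. The genes were taken by name from the 21738 protein-coding genes of the mm39 annotation: all integrin alpha and beta symbols followed by a number, other than Itgb3 and Itgb5, all laminin alpha, beta and gamma chains, and Col17a1, Col7a1, Col4a1, Col4a2, Col4a5, Dst, Plec and Cd151. The rule itself uses names and no measured value, but it was set with earlier results of these data known. The name pattern also took Itgb1bp1, Itgb1bp2 and Itgb3bp, 3 genes whose products are not integrins, and these are counted separately. A peak was given to a gene when its summit lay in the gene body, up to 50 kb upstream or up to 5 kb downstream. Together these windows cover 6.5 Mb, 0.239% of the genome, and several of them also hold starts of other genes.

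By label, 34 libraries fall into 11 groups. For the groups in vivo, HFSCs were sorted from wild-type mice in full anagen, the growth phase of the follicle (AnaVI, n = 2), from wild-type mice in late catagen, the phase in which the lower follicle dies back (CatVII, n = 6), and in CatVII from mice with functional Rxra (CatVII Rxra WT, n = 4) or without it (CatVII Rxra cKO, n = 3). Rxra encodes the nuclear receptor RXR alpha. The cKO mice carried Sox9-creER, floxed Rxra (fl/fl) and the R26-YFP reporter, and the Rxra WT mice (Rxra+/+) carried the Cre and the reporter as well. Both received tamoxifen, given at the end of anagen, so that the deletion in cKO mice depends on the Sox9 promoter and on recombination. In culture, HFSC lines with wild-type or floxed Rxra, both carrying Sox9-creER and R26-YFP and both exposed to 4-hydroxytamoxifen and sorted for YFP, were grown on inactivated 3T3/J2 fibroblast feeders. Rxra WT lines received medium (n = 2), apoptotic HFSC corpses made with cisplatin (n = 4), corpses plus the phospholipase A2 inhibitor bromoenol lactone (BEL, n = 4), or a mixture of retinoic acid, arachidonic acid and lysophosphatidylcholine, labelled AA+LPC+RA (n = 2). For Rxra cKO lines there was medium (n = 2), corpses (n = 3) and AA+LPC+RA (n = 2). The study calls its ATAC-seq replicates biological, but the labels do not give the animal or culture behind each, and a p-value here stands for the spread among libraries, which may be technical.

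Basal keratinocytes and HFSCs sit on laminin-332, a trimer that includes the chains encoded by Lama3 and Lamb3. The receptor pair encoded by Itga6 and Itgb4 binds it and, with plectin (Plec), BP230 (an epithelial product of Dst), collagen XVII (Col17a1) and the tetraspanin CD151, forms the hemidesmosome, which anchors keratin filaments. Beta-1 integrins, each a partner of one of several alpha chains, bind laminin, collagen or fibronectin at focal adhesions, and collagen VII (Col7a1) ties the basement membrane to the dermis. HFSCs are commonly isolated by ITGA6, and here too the sort in vivo kept ITGA6+, SCA1- cells that lacked haematopoietic, endothelial, melanocyte and fibroblast surface markers. CD34-high cells were taken from wild-type mice, and YFP+ cells in place of these from CatVII Rxra WT and cKO mice, so that the gates differ between these libraries. Presence of ITGA6 was thus a condition of entry and is no finding.

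Peaks had been called in each library by itself, 4111 to 129597 per library on chromosomes 1 to 19, X and Y and 1930325 in all, and the lists hold no read counts. Windows of the adhesion genes held 10 to 589 peaks per library, 0.243 to 0.555% of its peaks, and Dst and Lama5 were the members with a peak in all 34 libraries. The 4 medium libraries stood apart by their small lists (4111 to 5709 peaks, 10 to 20 of them at the adhesion genes), and for them a missing peak says little. In each comparison every library was therefore cut to the same number of its strongest peaks by p-value, as many as the smallest library of the comparison holds, and a listed peak is a peak within that number. The rank of a peak is its place in its own library, with 1 the strongest. Listed peaks of all libraries in a comparison that share at least 1 bp were merged into regions, and a region is called specific to a group when every library of that group and no library of the other has a listed peak in it. This is a rule of presence with no p-value. Counts for the adhesion genes are read beside the share of all tested regions or genes called in the same way, named here the background.

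Names stored inside the lists carry further tags. Of the CatVII Rxra WT libraries, replicate 1 is tagged P42 and the others P37, and the 3 CatVII Rxra cKO libraries are tagged P42, so that tag and genotype largely cannot be told apart. Tags Phago and NonPhago divide most of the corpse and catagen groups (replicates 1 and 2 NonPhago and 3 and 4 Phago in Rxra WT corpses and BEL), and stored numbers repeat across them, so that n may count fewer mice or cultures. CatVII Rxra cKO replicates 2 and 3 are both stored as m2. Peak lists do not show how completely Rxra was deleted.

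The comparison with the highest number of specific regions at the adhesion genes was that of corpse-treated Rxra WT cultures with CatVII Rxra WT cells taken from the skin, and 6 regions from it are shown because the account below returns to them. Each is 300 bases of mm39, plus strand, 5′ to 3′, centred on the summit of the best-ranked peak, and the capitals mark matches, on either strand, to the cores of AP-1 (TGAGTCA), TEAD (GGAATG), RUNX (TGTGGTT) or SOX (CATTGT). The first 3 had a listed peak in all 4 corpse-treated cultures and in no CatVII Rxra WT library. The region upstream of Dst, in an intron of the neighbouring gene Bend6, holds 3 AP-1 matches and 1 TEAD match, and those at the Col7a1 promoter and upstream of Itgb1 hold 1 AP-1 match each.
Dst, chr1:33939290-33939589: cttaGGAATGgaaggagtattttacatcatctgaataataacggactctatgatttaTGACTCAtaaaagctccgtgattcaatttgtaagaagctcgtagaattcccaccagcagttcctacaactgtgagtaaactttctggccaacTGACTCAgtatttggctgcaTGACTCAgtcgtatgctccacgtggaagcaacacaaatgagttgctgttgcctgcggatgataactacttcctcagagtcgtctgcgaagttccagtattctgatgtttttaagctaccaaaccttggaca
Col7a1, chr9:108782147-108782446: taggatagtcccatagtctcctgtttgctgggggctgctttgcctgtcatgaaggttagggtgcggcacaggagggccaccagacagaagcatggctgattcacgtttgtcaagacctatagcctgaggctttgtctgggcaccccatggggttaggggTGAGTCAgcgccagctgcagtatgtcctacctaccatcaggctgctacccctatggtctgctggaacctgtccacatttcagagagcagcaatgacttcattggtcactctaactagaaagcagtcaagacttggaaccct
Itgb1, chr8:129406515-129406814: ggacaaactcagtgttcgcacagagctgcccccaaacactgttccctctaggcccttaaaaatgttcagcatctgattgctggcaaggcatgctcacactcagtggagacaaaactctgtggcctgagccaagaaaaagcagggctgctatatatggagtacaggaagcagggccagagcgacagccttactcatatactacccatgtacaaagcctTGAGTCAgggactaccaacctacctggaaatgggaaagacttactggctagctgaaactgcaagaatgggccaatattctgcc
The other 3 were specific to CatVII Rxra WT cells in vivo. They lie in introns of Lamb3, with 1 SOX match, of Itga6, with 1 RUNX match, and of Lama4, with 1 match each for SOX, AP-1, TEAD and RUNX.
Lamb3, chr1:193009663-193009962: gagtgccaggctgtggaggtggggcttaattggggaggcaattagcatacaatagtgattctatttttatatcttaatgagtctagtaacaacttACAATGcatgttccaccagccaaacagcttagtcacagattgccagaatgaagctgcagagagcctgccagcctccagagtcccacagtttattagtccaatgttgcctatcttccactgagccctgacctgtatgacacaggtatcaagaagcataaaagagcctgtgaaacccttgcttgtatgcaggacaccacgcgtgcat
Itga6, chr2:71636475-71636774: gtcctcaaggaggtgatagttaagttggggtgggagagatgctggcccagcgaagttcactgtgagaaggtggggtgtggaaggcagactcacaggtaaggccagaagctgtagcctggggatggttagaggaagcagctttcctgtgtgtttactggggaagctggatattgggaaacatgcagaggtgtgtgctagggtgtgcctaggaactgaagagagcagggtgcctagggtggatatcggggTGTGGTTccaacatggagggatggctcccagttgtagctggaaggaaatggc
Lama4, chr10:38857050-38857349: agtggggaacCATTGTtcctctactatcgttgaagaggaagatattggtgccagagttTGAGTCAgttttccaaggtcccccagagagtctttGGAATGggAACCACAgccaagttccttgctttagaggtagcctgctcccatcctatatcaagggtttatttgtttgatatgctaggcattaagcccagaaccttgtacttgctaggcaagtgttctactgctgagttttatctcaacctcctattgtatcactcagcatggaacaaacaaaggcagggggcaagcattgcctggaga

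Across all called peaks, the genes of the hemidesmosome and of laminin-332 reported here had a promoter peak (within 1 kb of an annotated start) in 23 to 31 of 34 libraries. Itga6 and Lama3 had one in 31, Lamc1 (the gamma chain of most laminins) and Itgb1bp1 in 30, Itgb4, Lamb3, Itgb1 (the shared beta-1 chain) and Itgb8 (a beta chain of a TGF-beta-activating receptor) in 29, Dst and Plec in 28, Cd151 in 25 and Col17a1 in 23. Itga3, the alpha chain of the other main laminin receptor of the epidermis, had one in 24, as did Lama5, a laminin chain of the follicle basement membrane, and Itga5, of the fibronectin receptor, had one in 22. No promoter peak was called in any library at Itgb2 and Itgb2l, leukocyte beta chains, at Itga2b, the platelet alpha chain, at Lama2, or at Itgb1bp2. Other genes of blood cells were not at 0: Itga4 had a promoter peak in 7 libraries and Itgb7 in 8. No background over all genes stands beside these counts. Focal adhesion and basement membrane genes outside the members, named at the end of these results, ran from 3 libraries (Nid1) to 34 (Vcl). High counts are thus not particular to the members. Each annotated start can bring a promoter peak, and their number differs. Cd151 has 16, Plec 15, Dst 14, Lama3 2 and Col17a1 1.

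**Figure D1:**
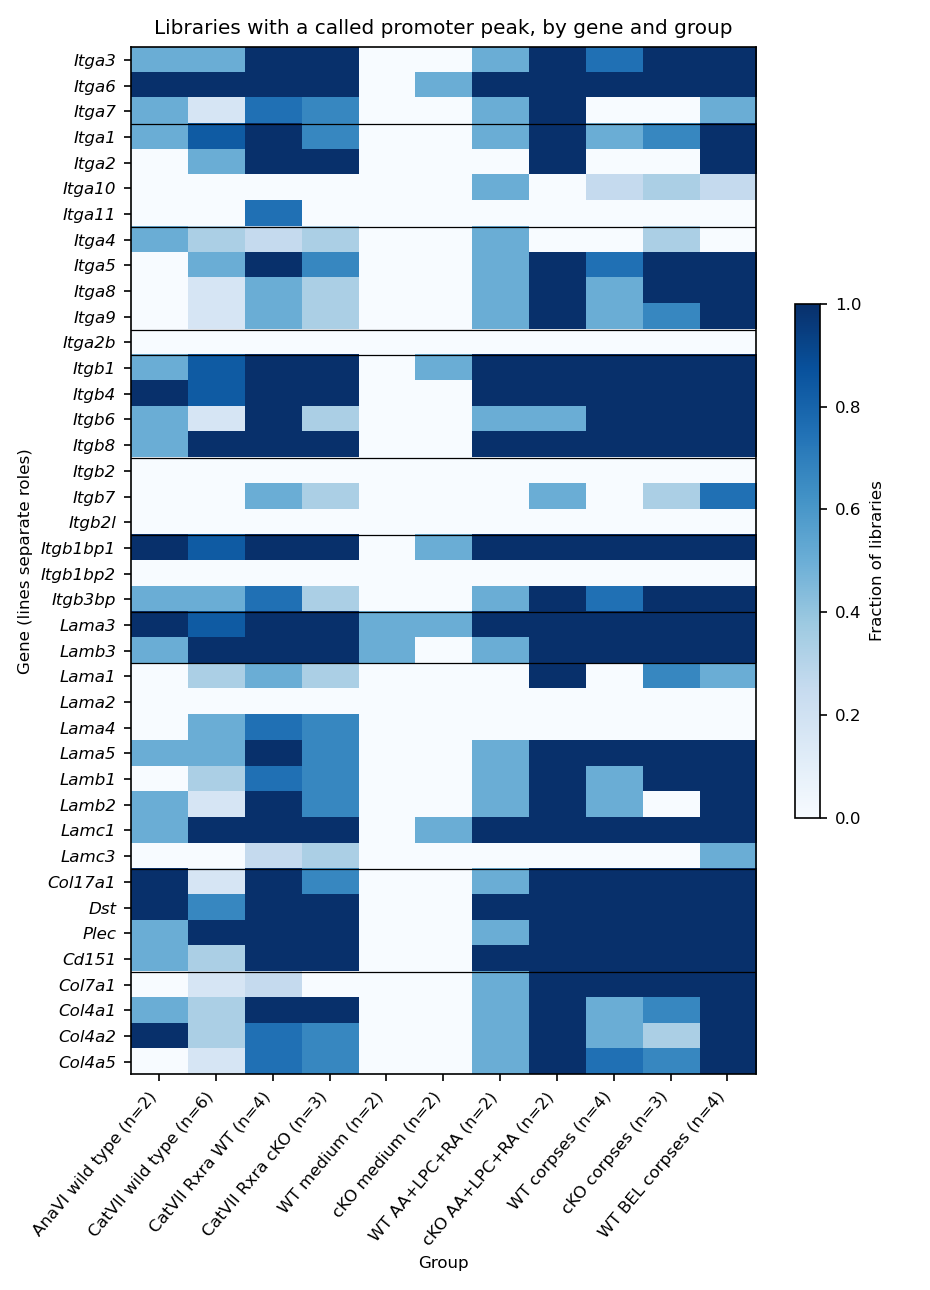
Share of the libraries of each group (columns) with a called peak within 1 kb of a start of each gene reported here (rows, ordered by role); darker blue is a larger share. The hemidesmosome genes and Lama3 and Lamb3 have a peak in every CatVII Rxra WT library and every culture with corpses, with or without BEL, and are lighter in some other groups, such as Col17a1 with 1 of 6 and Cd151 with 2 of 6 libraries in CatVII wild type, whereas Itgb2, Itga2b and Lama2 are blank throughout.

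Some promoters were called in part of the groups. Col7a1 had a promoter peak in 4 of 4 Rxra WT corpse cultures, 3 of 3 Rxra cKO corpse cultures, 4 of 4 BEL cultures, 2 of 2 Rxra cKO and 1 of 2 Rxra WT AA+LPC+RA cultures, but in 0 of 4 medium cultures and in 1 of 4 CatVII Rxra WT, 0 of 3 CatVII Rxra cKO, 1 of 6 CatVII wild type and 0 of 2 AnaVI libraries. Lama4, a laminin chain best known from vessels and mesenchyme, had one in 3 of 4 CatVII Rxra WT, 2 of 3 CatVII Rxra cKO and 3 of 6 CatVII wild type libraries and in no library of any culture or of AnaVI. Itga2, the alpha chain of a collagen receptor, was open at its promoter in 4 of 4 CatVII Rxra WT and 3 of 3 CatVII Rxra cKO libraries, in 3 of 6 CatVII wild type libraries and in 0 of 2 AnaVI libraries. In culture the Itga2 promoter had a peak in 4 of 4 BEL and 2 of 2 Rxra cKO AA+LPC+RA libraries. It had one in 0 of 4 Rxra WT and 0 of 3 Rxra cKO corpse cultures, 0 of 2 Rxra WT AA+LPC+RA and 0 of 4 medium cultures. Itga11, a collagen receptor alpha chain, had one in 3 of 4 CatVII Rxra WT libraries and in no other. Depth differs between these lists, so the comparisons that follow use lists of equal length.

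Corpse-treated Rxra WT cultures and CatVII Rxra WT cells were compared on their 43758 strongest peaks, to ask how the adhesion genes differ between cultured HFSCs and HFSCs in the skin. This contrast combines culture, feeders, passage and corpse exposure, which cannot be told apart. Of 243 tested regions at the adhesion genes, 38 in 23 genes were specific to the cultures (15.6%, background 21.6%) and 26 in 16 genes to the cells in vivo (10.7%, background 13.8%), and 85 had a listed peak in all 8 libraries. Both shares lie below the background. Without CatVII Rxra WT replicate 1, the smallest library, the in vivo-specific count was 47.

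By role, the basement membrane and anchoring collagens had culture-specific regions only, 7 of 25 with 0 specific to cells in vivo, counting a region in 2 windows once for each gene. The laminin chains outside laminin-332 had 9 culture-specific and 4 in vivo-specific regions of 32. Of the laminin-332 chain genes, Lama3 had 3 and 3 of 15 and Lamb3 1 and 2 of 8. The hemidesmosome genes Dst, Plec, Col17a1 and Cd151 had 3 and 5 of 51, with Itga6 and Itgb4 counted among the integrin chains. The laminin-receptor alpha chains had 1 and 4 of 26, the collagen-receptor alpha chains 5 and 4 of 19, and the fibronectin-type alpha chains 2 and 0 of 10. Among the beta chains outside leukocytes there were 4 and 3 of 30. These splits were not tested.

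**Figure D2:**
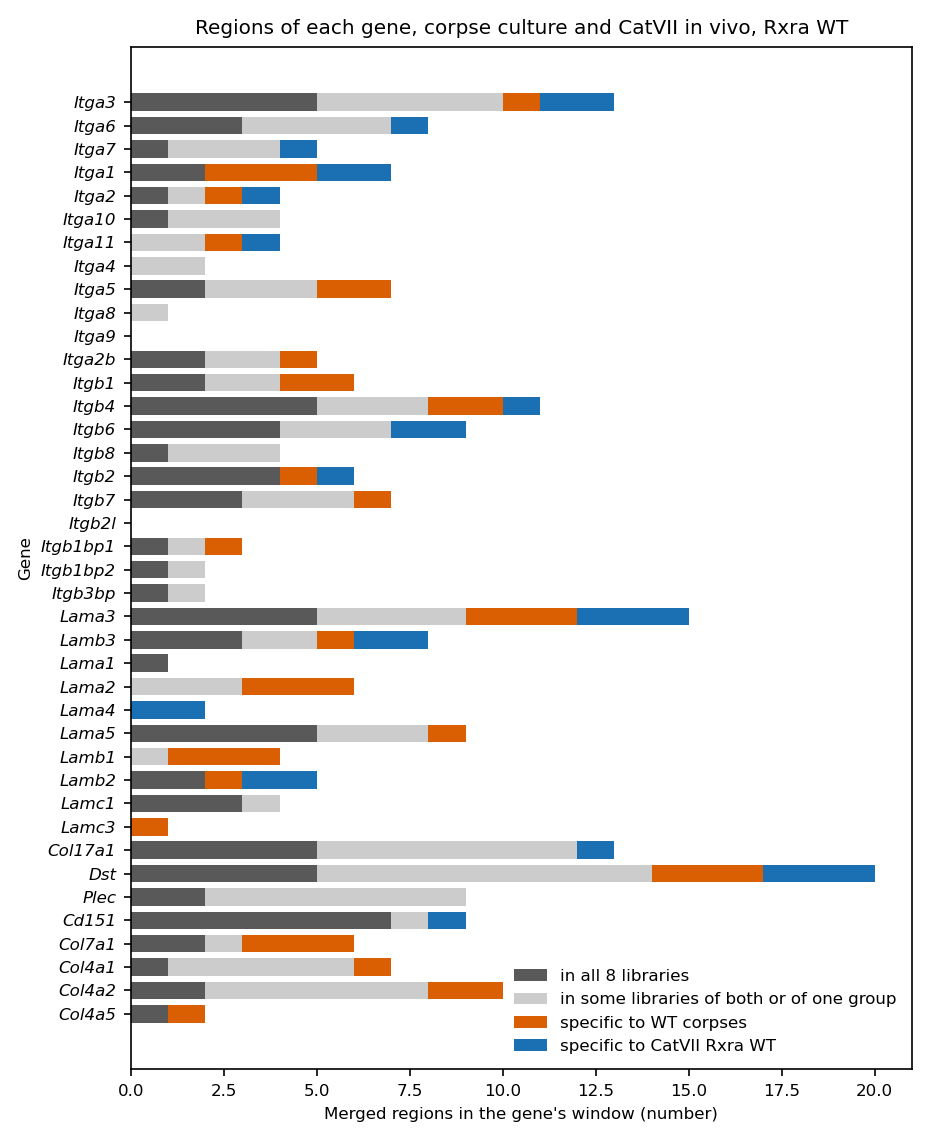
Number of merged regions (horizontal axis) in the window of each gene reported here (vertical axis) in the comparison of corpse-treated Rxra WT cultures with CatVII Rxra WT cells, divided into regions specific to either group and all other tested regions. Dst carries 3 specific regions in each direction, Col7a1 3 in culture alone, and most regions of most genes belong to neither group.

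Among the anchoring and basement membrane collagens, the promoter region of Col7a1 (chr9:108782053-108782815, summit 350 bp from the start) ranked 7809, 26459, 18389 and 16002 in the 4 corpse cultures and was listed in no CatVII Rxra WT library. Further regions of its window, one in the coding part of Col7a1 and one upstream near Tmem89, were culture-specific at weaker ranks, 19312 to 37988 and 21699 to 41221. At the divergent pair Col4a1 and Col4a2, which encode the main collagen IV chains, an intron of each held a culture-specific region, with ranks of 15815 to 23589 and 14139 to 33486. Col4a5, another collagen IV chain, had 1 in an intron at 9942 to 28009.

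Of the laminin genes, Lamb3 had specific regions in both directions. In it, an intronic region 25262 bp from the nearest start (chr1:193009078-193010243) ranked 6975, 5963, 7355 and 6071 in the CatVII Rxra WT libraries, near one another and all high, and was in none of the cultures. In the same gene a different Lamb3 intron region was culture-specific, with ranks of 9422, 23107, 28737 and 42850. Lama3 had 3 culture-specific and 3 in vivo-specific regions, 5 of these 6 in its introns. Both specific regions of Lama4 were in introns and in vivo-specific, at ranks of 9932 to 17431 and 15654 to 33765.

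Culture-specific regions were found at Lama2, the alpha chain of muscle laminin, at Lamb1 and at Lamc3, none of which had an in vivo-specific one. The upstream region of Lama2 (chr10:27508989-27509676) ranked 6185, 1496, 9466 and 7935 in the cultures, and an intronic region of Lamc3 (chr2:31825046-31825412) ranked 2716, 7637, 2074 and 1328. These are among the best ranks of any specific region here, although Lama2 had no promoter peak in any library. Lamb1 had 3 such regions, with the best rank, 4398, at an upstream site.

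At the hemidesmosome genes, the region upstream of Dst with 3 AP-1 matches ranked 5919, 13645, 10259 and 9880 in the cultures. An intronic Dst region (chr1:34148609-34149199) was culture-specific as well, at 5538 to 11099, and another 17397 bp from a start (chr1:34142705-34143382) was specific to cells in vivo, at 7083 to 27718, so that neighbouring elements of one gene differed in opposite directions. Itga6 had 1 in vivo-specific region, in an intron (chr2:71636054-71636819), at 12302, 13988, 19059 and 20938, and none specific to culture. Itgb4 had 2 culture-specific regions upstream, in introns of Sap30bp, and 1 in vivo-specific region at the start of Galk1. For Cd151 and Col17a1 the single specific region was in vivo-specific, at the start of Cracr2b in the former and between genes in the latter, and Plec had none.

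Of the beta-1 integrin genes, Itgb1 had 2 culture-specific regions upstream, the nearer (chr8:129406225-129406789, 5211 bp from the start) at 17819, 8828, 20437 and 18119. Itga5 had 2 upstream, the better ranked (chr15:103301914-103302530) at 12658, 11379, 12982 and 10787. Itga3 had its own promoter region among those specific to cells in vivo and a region 1334 bp from the start among the culture-specific ones. At Itgb6, the beta chain of an epithelial receptor for latent TGF-beta, 2 intronic regions were in vivo-specific, the better ranked at 8292 to 17687.

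Promoters made up 2 of the 38 culture-specific regions (5.26%; 3% of all culture-specific regions), 7 of the 26 in vivo-specific ones (26.9%; 11.7% of all), and 59 of the other 179 (33%; 36.1%). The listed peaks as a whole held fewer promoters in culture, 23.6 to 25.6%, than in vivo, 28.9 to 29.8%, and the part of this in the result was not tested.

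The number of listed peaks per gene window gave a second measure, tested for every gene with at least 1 listed peak by an exact two-sided permutation test with Benjamini-Hochberg adjustment over all 18792 genes. Of 40 adhesion genes tested, 5 had more listed peaks in every culture than in any CatVII Rxra WT library, beside a background of 12.2%, and 0 had the reverse, beside 11.4%. All 5 were at the smallest p this design allows, exact permutation p = 0.0286 (23.6% of all genes were under 0.05), and at adjusted p = 0.121, so none passed. Over all genes, 0 passed after adjustment. With so few libraries a gene could pass only if a large share of all genes reached that smallest p. The adjustment therefore says little about single genes, here and in the comparisons below.

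Col7a1 had 7, 7, 5 and 6 listed peaks in the cultures and 3 in each of the 4 libraries in vivo (6.25 ± 0.957 and 3 ± 0, mean ± SD, n = 4 each). Itga5 had 8, 8, 7 and 8 in the cultures and 6, 4, 5 and 6 in vivo, and Itgb1 had 6, 11, 8 and 8 and 2, 5, 4 and 3. The ranges of these genes do not overlap, and Itgb1 has the widest spread among the cultures (8.25 ± 2.06). Lama2 had 8, 9, 6 and 6 in culture and 2, 4, 4 and 3 in vivo, and Lamb1 5, 4, 4 and 5 and 1, 1, 3 and 1. As a share of the 40 genes tested these 5 are close to the background, so the count shows nothing particular to the adhesion genes.

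Among the genes of laminin-332 and its receptor, Itga6 and Lamb3 had higher means in vivo, with overlapping ranges. Itga6 had 6, 6, 6 and 8 listed peaks in the cultures and 7, 11, 12 and 11 in vivo (exact permutation p = 0.0571, adjusted p = 0.21). Lamb3 had 6, 7, 7 and 8 and 9, 9, 8 and 10 (exact permutation p = 0.0571). The ranges of Itgb4 were alike, with 9, 12, 11 and 10 and 11, 11, 10 and 10, and Lama3 had 11, 13, 11 and 13 and 12, 13, 14 and 11. The other hemidesmosome genes overlapped as well, Dst with 16, 17, 16 and 17 and 18, 21, 19 and 14, Col17a1 with 11, 12, 10 and 10 and 12, 16, 14 and 12, and Cd151 with 10, 9, 7 and 10 and 12, 11, 10 and 11.

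Promoter peaks were also compared by rank, an unlisted peak counting as ranked below the list, for genes with a listed promoter peak in at least as many libraries as the smaller group holds, a measure added after the data had been seen and with no p-value. Of 20 adhesion genes, 1 ranked higher in every culture (background 3.69%) and 4 ranked higher in every CatVII Rxra WT library (background 29.2%). The former was Col7a1. Among the latter, Itga6 ranked 5369, 7181, 6198 and 4455 in vivo and was listed in 2 of 4 cultures, at 20188 and 26612. Itga3 ranked 27138, 14629, 10747 and 15005 in vivo and was unlisted in all cultures, and so were Itga1, a collagen receptor alpha chain, and Lamb2. The promoter of Lama3 was among the strongest peaks of both, at 692 to 2576 in culture and 1879 to 8664 in vivo.

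**Figure D3:**
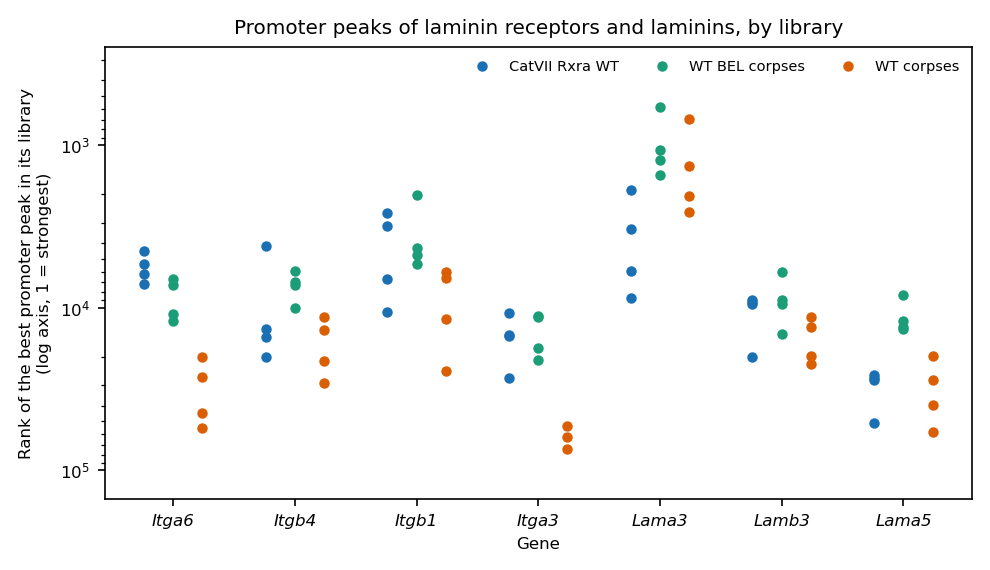
Rank of the best promoter peak within its library (vertical log axis, 1 = strongest, at the top) for 7 adhesion genes, each point 1 library of CatVII Rxra WT cells (blue), BEL-treated corpse cultures (green) or untreated corpse cultures (orange), with no point where no promoter peak was called. At Itga6 and Itga3 the orange points lie below the blue and green ones, whereas at Lamb3 the 3 groups overlap.

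Libraries that had not entered this comparison were then examined over the same regions, where their lists were long enough. Of the 38 culture-specific regions, 31 to 36 had a listed peak in each of 10 further culture libraries (81.6 to 94.7%), and 4 to 10 in each of 4 further libraries in vivo (10.5 to 26.3%). The 26 in vivo-specific regions were present at 16 to 24 (61.5 to 92.3%) in those 4 libraries and at 0 to 8 (0 to 30.8%) in the 10 cultures. Over all regions of each kind the shares were 82.6 to 92.3% and 3.74 to 10.7% for the former, and 58.6 to 86.4% and 4.42 to 10% for the latter. The division thus held in other libraries for the adhesion genes and for regions at large, in cultures with BEL, with AA+LPC+RA and without Rxra.

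**Figure D4:**
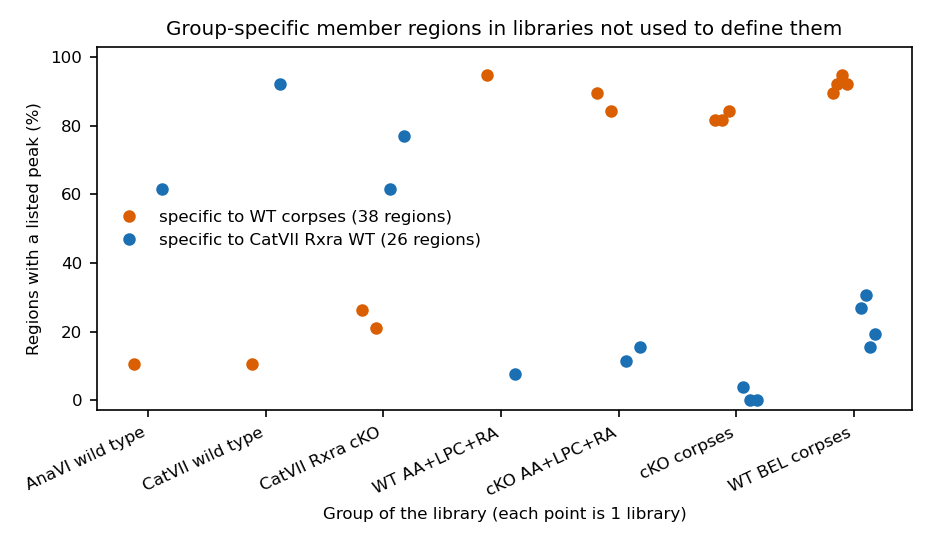
Percent of the 38 culture-specific (orange) and 26 in vivo-specific (blue) adhesion gene regions with a listed peak in each library that was not used to define them (points), by group. Orange points lie at 81.6% or above in cultures and at 26.3% or below in vivo, and blue points at 61.5% or above in vivo and 30.8% or below in cultures.

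Some single regions did not follow that division. Among all called peaks, the Dst region with 3 AP-1 matches was also found in 2 of 2 AnaVI and 2 of 3 CatVII Rxra cKO libraries, though in 0 of 6 CatVII wild type libraries. The Itga6 intron region was found in 4 of 4 BEL cultures and in 2 of 2 of each AA+LPC+RA group. By contrast, the Itgb1 and Lamc3 regions were found in no library of AnaVI, CatVII wild type or CatVII Rxra cKO, and the Lamb3 intron region in no culture of any kind but in 2 of 2 AnaVI, 3 of 3 CatVII Rxra cKO and 2 of 6 CatVII wild type libraries.

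Sequence motifs in 300 bases around each summit differed most for AP-1. An AP-1 match was present in 18 of 38 culture-specific adhesion gene regions (47.4%) and 2 of 26 in vivo-specific ones (7.69%), beside 30% of all 243 adhesion gene regions and 30.2% of all regions tested. The same split stood in all genes, with 53.4% of culture-specific and 14.3% of in vivo-specific regions. TEAD was matched in 21.1 and 26.9% (20.4% of all tested), RUNX in 18.4 and 19.2% (9.11%) and SOX in 18.4 and 26.9% (15.2%). The p63 half-site pair was matched in 1 and 4 regions (11.8% of all), the LIM homeodomain core TAATTA in 0 and 1 (6.22% of all), and the DR2 retinoid element in 0 of 243 (0.102% of all). Motifs can overlap one another, and a match is a description of letters only.

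Marker genes of other cells that the sort could hold were counted in the same lists. Fibroblast marker windows held 4 to 5 listed peaks in the cultures and 6 to 8 in vivo, melanocyte windows 13 to 19 and 20 to 29, endothelial windows 13 to 17 and 17 to 24, leukocyte windows 24 to 29 and 23 to 29, and HFSC and basal keratinocyte windows 42 to 49 and 73 to 84. Promoter peaks were called in no library for 4 of 7 leukocyte markers (Ptprc, Spi1, Cd3e and Itgam), 3 of 7 melanocyte markers (Sox10, Tyr and Mlana) and 2 of 7 fibroblast markers (Lum and Col3a1). Of the endothelial markers, this held for 0 of 5. Pmel had a promoter peak in 29 libraries, Mitf in 28, Pdgfra in 24, Col1a1 in 21, Cd68 in 21 and Tek, an endothelial marker, in 20. The rest of these 4 lists ran from 1 library for Tyrp1 and Dcn to 19 for Dct. On the HFSC and basal keratinocyte list the numbers ran from 8 for Cd34 to 29 for Sox9, with 19 for Tbx1, 21 for Nfatc1 and 26 for Krt5. The part of these cells in the results was not tested, and in bulk lists a change in cell makeup and a change within cells cannot be told apart.

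CatVII and AnaVI wild-type cells were compared on 8223 peaks per library, the depth of the smallest library, to ask what distinguishes late catagen from growth. At this depth only the strongest sites enter. Of 54 tested regions at the adhesion genes, 6 were specific to AnaVI (11.1%, background 9.54%) and 1 to CatVII (1.85%, background 4.92%). The AnaVI count was 22 without its replicate 1, 20 without its replicate 2 and 11 without CatVII replicate 3, the smallest library, and the CatVII count was 6 without the latter and 2 without replicate 5 or 6. The AnaVI regions lay in introns of Lamb3, Lama2 and Itga1, upstream of Itga6, at the start of Rbm8a in the window of Itga10, and in Parp10 in the window of Plec. The Lamb3 region (chr1:193009630-193009918) ranked 448 and 1378 in the AnaVI libraries and lies within the intronic region described above as specific to CatVII Rxra WT cells against culture. It was listed in 4 of 4 CatVII Rxra WT and 3 of 3 CatVII Rxra cKO libraries too, at the same list length, and in no culture. The region at the start of Rbm8a was likewise listed in 4 of 4 CatVII Rxra WT and 3 of 3 CatVII Rxra cKO libraries. The regions upstream of Itga6 and in Lama2 were each listed in 1 of 4 CatVII Rxra WT libraries, and in 0 and 2 of 3 CatVII Rxra cKO libraries. Those in Itga1 and in the window of Plec were listed in 0 of 4 and 0 of 3. Among all called peaks, on longer lists, the AnaVI regions had a peak in 4 of 4 CatVII Rxra WT libraries. Only that in the window of Plec had one in 3 of 4. The Lamb3 and Rbm8a regions thus do not set AnaVI apart from late catagen at large. For the others the answer depends on list length.

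Counts per window were higher in both AnaVI libraries for 3 of 36 adhesion genes (background 5.28%) and higher in all CatVII libraries for 0 (background 4.91%). Col17a1 had 5 and 6 listed peaks in AnaVI and 1 to 2 in the 6 CatVII libraries, with a median of 2. Itga1 had 3 and 3 in AnaVI and 1 to 2 in CatVII, but with lists of 50% of the length the difference of CatVII minus AnaVI turned to 0.17. Itga5 had 1 and 1 in AnaVI and 0 in all CatVII libraries. Each was at exact permutation p = 0.0357 (8.94% of genes were under 0.05), the smallest possible here, and at adjusted p = 0.399, so that none passed. By promoter rank, 0 of 8 genes separated in either direction (backgrounds 13.4% for CatVII and 7.08% for AnaVI). Promoters took 51.5 to 67.2% of listed peaks in CatVII and 36.4 to 45.3% in AnaVI, and the part of this in the counts was not tested.

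Deletion of Rxra in vivo was compared on 41317 peaks per library. Of 236 tested regions at the adhesion genes, 94 had a listed peak in all 7 libraries, 3 were specific to CatVII Rxra cKO (1.27%, background 0.675%) and 2 to CatVII Rxra WT (0.847%, background 1.84%). Leaving out cKO replicate 1 gave 24 and 8, and leaving out Rxra WT replicate 1 gave 6 and 16. The Rxra WT count was 4 without its replicate 3 or 4 and 6 without cKO replicate 3. Within P42-tagged libraries (3 against 1) the counts were 12 and 19. Those specific to cKO lay in an intron of Itgb6 (ranks 28431, 19213 and 25496), in an intron of Itga11 (16329, 36654 and 36183) and at the start of Zfp385a in the window of Itga5 (34783, 28621 and 26367). Those specific to Rxra WT lay in an intron of Lama4, the region shown above (21672, 24505, 15654 and 33765), and in an intron of Lama3 (9654, 15299, 19109 and 3892). The Lama3 region was also listed in 4 of 4 Rxra WT corpse, 4 of 4 BEL and 3 of 3 Rxra cKO corpse cultures, whereas the Lama4 region was listed in 0 of each.

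By window, 1 of 41 genes was higher in every cKO library (background 1.1%), and none of those reported here was higher in every Rxra WT library (background 3.66%). Itga5 had 6, 7 and 7 listed peaks in cKO and 5, 4, 5 and 5 in Rxra WT (exact permutation p = 0.0286, adjusted p = 0.76, with 3.65% of genes under 0.05). The receptor genes overlapped, with 6, 10 and 9 against 6, 11, 12 and 11 for Itga6 and 8, 9 and 12 against 10, 10, 10 and 10 for Itgb4. No gene passed after adjustment. By promoter rank, 0 of 26 separated in either direction (backgrounds 2.95% for cKO and 4.85% for Rxra WT). Fibroblast marker windows held 4 listed peaks in each cKO library and 6 to 7 in Rxra WT, and melanocyte windows 17 to 18 and 18 to 29, values whose part in the Lama4 result was not tested.

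Under corpses in culture, Rxra cKO and Rxra WT lines were compared on 72047 peaks per library. Of 382 tested regions, 215 had a listed peak in all 7 libraries, 8 in 7 genes were specific to cKO (2.09%, background 3.61%) and 6 to Rxra WT (1.57%, background 1.78%), both below the background. Within Phago-tagged libraries (1 against 2) these counts were 51 and 49, and within NonPhago-tagged ones (2 against 2) 24 and 20. Without Rxra WT replicate 1 they were 14 and 14, and the count for Rxra WT was 11 without its replicate 4 or without cKO replicate 2. The cKO-specific regions lay in introns of Lamc1 (2 regions), Lama2, Lamb1 and Itga8 and upstream of Itgb1, Itga7 and Itgb8, and 0 of the 8 were at a promoter. The Rxra WT-specific regions lay in introns of Itga6, Itga4, Itgb1bp1, Plec and Lama3 and in a UTR of Rarg within the window of Itgb7. The Plec region (chr15:76091611-76092019, 643 bp from a start) was the best ranked of the 6, at 25760, 17095, 11326 and 14246.

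In 3 Rxra WT cultures that the comparison had not used, 2 with BEL and 1 with AA+LPC+RA, all 6 Rxra WT-specific regions had a listed peak, and in 3 libraries in vivo 4 to 5 had one, including the CatVII Rxra cKO library. The 8 cKO-specific regions were listed at 0 to 2 in the same cultures and at 2 to 3 in vivo. Over all Rxra WT-specific regions the share was 77.7 to 88.1% in these cultures. In vivo it was 32.7 to 49.2%, beside 66.7 to 83.3% of the 6 at the adhesion genes. Over all cKO-specific regions the share was 11.7 to 13.6% in these cultures, beside 0 to 25% of the 8. In vivo it was 10.5 to 15.7%, beside 25 to 37.5%. These differences rest on few regions and were not tested.

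Windows without overlap numbered 3 of 41 with more peaks in cKO (background 3.67%) and 5 with more in Rxra WT (background 4.92%), and 5 members were under an exact permutation p of 0.05 (6.86% of genes). Plec, the plakin that links hemidesmosomes to keratin, had 13, 12 and 13 listed peaks in cKO and 18, 18, 17 and 16 in Rxra WT (12.7 ± 0.577, n = 3, and 17.2 ± 0.957, n = 4; exact permutation p = 0.0286, adjusted p = 0.416). Col17a1 had 12, 14 and 14 in cKO and 15, 16, 15 and 16 in Rxra WT, and Itgb4 11, 11 and 11 and 13, 13, 13 and 12. So 3 hemidesmosome genes had fewer listed peaks in every cKO library at this list length, whereas the ranges of Itga6, Dst and Cd151 overlapped. Among all called peaks, however, the difference of cKO minus Rxra WT was -0.75 for Plec with overlap and 1.58 for Itgb4, and within Phago-tagged libraries, on longer lists, it was 1.00 for Plec. Itga1 had 7, 8 and 8 in cKO and 12, 9, 11 and 9 in Rxra WT, a difference that turned to 0.67 with all called peaks. Itgb1bp1 had 3, 3 and 2 and 5, 5, 5 and 4.

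Among the 8 laminin chains outside laminin-332, 2 had more listed peaks in every cKO library, and the ranges of the other 6 overlapped. Lamb1 had 10, 8 and 7 in cKO and 5, 5, 6 and 5 in Rxra WT (exact permutation p = 0.0286), and Lamc1 15, 12 and 12 and 8, 11, 8 and 8 (exact permutation p = 0.0571, adjusted p = 0.618). Itgb3bp had 8, 9 and 8 and 5, 6, 6 and 6, a difference that turned to -0.25 with lists of 50% of the length. Nothing passed after adjustment, the smallest adjusted p among all genes being 0.416. By promoter rank, Plec was the 1 of 20 genes higher in every Rxra WT library (background 6.77%), at 10985, 17095, 11326 and 14246 against 49797, 18028 and 18534, and 0 were higher in cKO (background 5.14%). The peaks at 17095, 11326 and 14246 are those of the Rxra WT-specific Plec region given above. That region also adds to the window count, so the results at Plec by region, window and rank are not independent. Plec has 15 annotated starts.

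**Figure D5:**
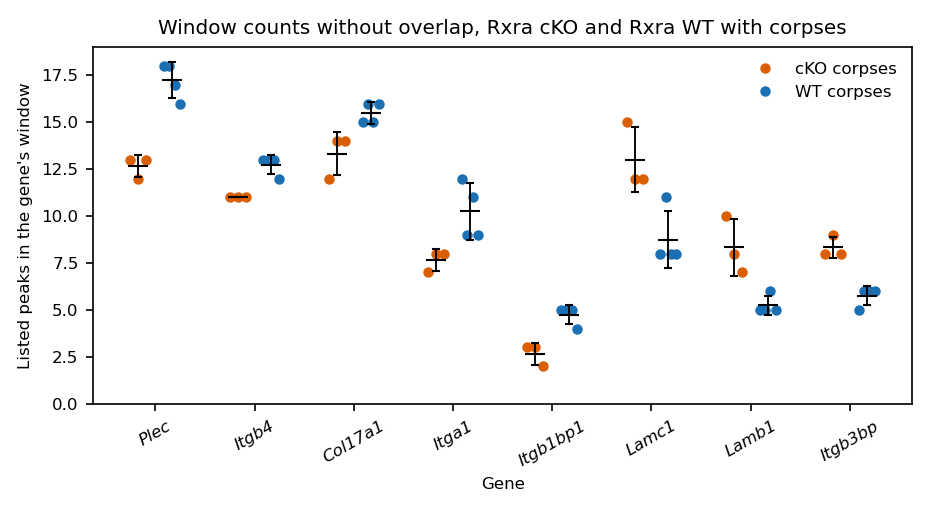
Listed peaks (vertical axis) in the windows of the adhesion genes whose ranges did not overlap between Rxra cKO and Rxra WT cultures under corpses, each point 1 library. Plec, Col17a1 and Itgb4 have fewer in the 3 cKO libraries, and Lamb1, Lamc1 and Itgb3bp more.

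BEL-treated and untreated corpses were compared in Rxra WT cultures on 63739 peaks per library, to ask what depends on the lipids that corpses release through phospholipase A2. Among the regions tested, 206 had a listed peak in all 8 libraries, 8 were specific to BEL (2.41%, background 2.26%) and 0 to untreated corpses (background 0.716%). The BEL count was 17 without untreated replicate 3, 16 within Phago-tagged and 30 within NonPhago-tagged libraries (2 against 2 each), where 7 and 11 were specific to untreated corpses. Promoters were 6 of the 8 (75%, beside 32.6% of all BEL-specific regions), those of the integrin alpha genes Itga1, Itga2 and Itga9, of Lamb2 and Col4a5, and of Dlx3 in the window of Itga3. The others were in UTRs, of Lamc3 and of Slk near Col17a1.

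By rank, 17 of 28 promoters were higher in every BEL library than in any library with untreated corpses (60.7%), beside 46.8% of all gene promoters tested, so that the shift was shared by promoters at large. None were higher in untreated corpses (background 2.36%). Itga6 ranked 7270, 12070, 6647 and 10992 with BEL and 54617, 44557, 20188 and 26612 without. Itgb4 ranked 6960, 9993, 5961 and 7208 and 28970, 13720, 11375 and 21180, and Lama5 8376, 13168, 13435 and 12133 and 58347, 39750, 19736 and 27829. For Itga3 the ranks were 11297, 11360, 17611 and 20850 with BEL, while without it the peak was listed in 2 of 4 libraries, at 62446 and 53315. With BEL the ranks of both genes overlapped those of CatVII Rxra WT cells, as the plot of promoter ranks shows. The others among the 17 were Itga1, Itga2, Itga5, Itga8, Itga9, Itgb1, Itgb1bp1, Itgb3bp, Col4a1, Col4a2, Col4a5, Lamb1 and Lamb2, and a shared promoter serves Col4a1 and Col4a2. Lama3 and Lamb3 were not among them. Promoters took 20.2 to 21.3% of listed peaks with BEL and 20.3 to 22.4% without.

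Window counts under BEL were higher in every library for 1 of 41 genes (background 3.8%) and lower in every library for 0 (background 3.41%). It was Itgb2, with 7, 7, 7 and 8 listed peaks against 6, 6, 6 and 6 (exact permutation p = 0.0286, adjusted p = 0.396, with 7.21% of genes under 0.05), a gene without a promoter peak in any library. Itga6 had 10, 10, 9 and 9 with BEL and 10, 11, 11 and 11 without, and Itgb4 11, 10, 10 and 10 and 11, 13, 13 and 12, so that better-ranked promoters did not come with more peaks in their windows. Lama3 had 26, 24, 24 and 19 and 15, 23, 18 and 17 (exact permutation p = 0.0571). The untreated corpse libraries are the same in this comparison, in that of cKO with Rxra WT and in those with medium and with cells in vivo.

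Corpses and medium in Rxra WT cultures could be compared on 4812 peaks per library only. Of 32 tested regions, 7 were specific to corpses (21.9%, background 20.7%), 2 to medium (6.25%, background 11.4%), and 1 had a listed peak in all 6 libraries. The corpse-specific regions reported here lay at Lamc1, Dst, Itgb6, Lama5 and Itgb2, and those specific to medium in introns of Dst and Itga8. Windows were higher in every corpse library for 5 of 31 genes (background 12.9%), including Itga3, Itgb2, Lama5 and Lamc1, and in both medium libraries for Itga8 (background 4.88%).

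Lama5 had 3, 3, 3 and 3 listed peaks with corpses and 2 and 1 in medium. Itga8 had 0 in all 4 corpse libraries and 1 and 3 in medium, but with all called peaks the difference of corpses minus medium turned to 1.75. With 4 against 2 libraries the exact permutation test cannot go below p = 0.0667, so that 0% of genes were under 0.05 and the smallest adjusted p was 0.418. The promoter of Lama3 ranked 2576, 2065, 692 and 1353 with corpses and was listed in 1 of 2 medium libraries, at 3601. It was the 1 of 2 testable promoters higher in every corpse library (background 20.8%), and 0 were higher in medium (background 6.2%). Promoters took 29.3 to 49.5% of listed peaks with corpses and 17.3 to 28.5% in medium, and the part of this in the counts was not tested. Without medium replicate 3 or 4 the medium-specific count was 9 or 12.

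A list of 18 genes of focal adhesions and the basement membrane outside the members (Tln1, Vcl, Fermt1, Fermt2, Ptk2, Ilk, Parva, Lims1, Pxn, Zyx, Nid1, Nid2, Hspg2, Fn1, Tnc, Dag1, Sdc1 and Fblim1) was counted in the same way. After adjustment 0 passed in any comparison, an outcome that so few libraries nearly fix in advance. Between culture and cells in vivo, 4 of 18 had more listed peaks in every culture, beside the background of 12.2%, and 1 had more in every library in vivo (background 11.4%). Ptk2, which encodes focal adhesion kinase, had 12, 11, 11 and 11 in culture and 6, 7, 5 and 6 in vivo, and Fermt1, the epidermal kindlin that activates integrins, 9, 9, 6 and 6 and 2, 2, 2 and 4. Lims1, of the integrin-linked kinase complex, and Nid1, a linker of laminin and collagen IV, were the other 2, and Hspg2, which encodes perlecan, had 1, 4, 3 and 2 in culture and 5, 11, 13 and 10 in vivo.

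Between cKO and Rxra WT under corpses, 1 of 18 had more in every cKO library (background 3.67%), Fermt2 with 5, 5 and 5 against 2, 2, 3 and 3. Vcl, the gene of vinculin, was the 1 with fewer (background 4.92%), at 9, 10 and 10 against 15, 15, 12 and 12. With BEL, Nid2 was the 1 with more (background 3.8%), at 3, 3, 3 and 3 against 0, 2, 2 and 1. Fermt1 was the 1 with fewer (background 3.41%), at 7, 7, 7 and 6 against 10, 9, 8 and 10. Fermt1 was also the gene of the list with more listed peaks in both medium libraries (2 and 1) than with corpses (0 in all 4, background 4.88%). Beside such backgrounds, 1 gene of 18 shows nothing particular to the list. In the comparisons of Rxra in vivo and of CatVII with AnaVI, 0 of 18 separated.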

How the data were processed

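Reads were aligned to mm39, duplicates were removed, and peaks were called in each library by itself by the authors, with no pooling of replicates. The submitters' processing notes name BWA 0.7.18, SAMtools 1.17 and 1.9, MACS3 3.0.0 and deepTools 2.0.0. Each deposited list gives peak intervals, a fold enrichment at the summit (a ratio over the local background), a −log10 p and a −log10 q, and a display score. These values come from the authors' caller, follow the depth of the library and were used only to rank peaks within it. Read counts are not part of the lists, so that depth is known only through the number of peaks.

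The lists were read with Python 3.11.15, NumPy 2.4.6, pandas 2.3.3 and pysam 0.24.0, and figures were drawn with matplotlib 3.10.9. For each comparison the lists were cut to equal length by −log10 p, peaks sharing at least 1 bp were merged, and a region was tested when at least as many libraries as the smaller group holds had a listed peak in it. Listed peaks per gene window were compared by an exact two-sided permutation test of the library labels with Benjamini-Hochberg adjustment over all protein-coding genes with a listed peak. Both steps were run on simulated data with known answers. The lists simulated for the rule of presence had no missing peaks and were not cut. That run thus checks the code and not how the rule performs on real lists. Named genes were fixed as the hemidesmosome, laminin-332 and keratinocyte integrin genes, the leukocyte and platelet integrins, the main basement membrane genes, and each member with a specific region or window counts without overlap. Values of 1 member gene are not reported here, though it stays in the totals. The members and gene lists were chosen with earlier results of these data known. The comparison of promoter ranks and the counts within stored tags were added after the data had been seen. Groups came from the labels alone, the highest share of identical intervals between any pair of libraries was 0.438%, and AA+LPC+RA and Rxra cKO medium libraries were described but not compared.

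Alternatives were all called peaks, lists cut to 50% of their length, a window of 10 kb upstream, a peak that covers at least 50% of the merged region, the replicate number as a block, and leaving out each replicate. The overlap alternative was first planned against the shorter of peak and region, which every peak meets, and was run against the merged region instead.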

Additional observations from a re-analysis of the deposited data

Results flagged for a closer look

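In groups of 4 to 10 libraries, 14 of 42 examined had a highest or lowest value farther from its neighbour than Dixon's 95% critical value allows. Most of the 42 came from windows already called without overlap, so the usual rate of about 1 in 20 does not apply. Most of the flagged values are whole numbers of peaks with ties, so that a single peak is enough. CatVII wild type replicate 2 had 265 peaks at the adhesion genes, more than any other library of its group, and 51979 peaks in all. In the comparison of CatVII with AnaVI, Col17a1 had 1 listed peak in CatVII replicate 5. With Rxra deleted in vivo as the contrast, CatVII Rxra WT replicate 2 had 4 at Itga5. Against cKO under corpses, Rxra WT replicate 4 had 4 at Itgb1bp1 and 12 at Itgb4, replicate 1 had 5 at Itgb3bp, replicate 3 had 6 at Lamb1 and replicate 2 had 11 at Lamc1. BEL replicate 4 had 8 at Itgb2. In the comparison of culture with cells in vivo, corpse replicate 3 had 7 at Itga5 and CatVII Rxra WT replicate 3 had 3 at Lamb1. Against medium, corpse replicate 3 had 2 at Itga3 and corpse replicate 1 had 2 at Lamc1.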

How the results depend on the processing

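The counts of specific regions rest on list length and on the libraries used, and most moved by over 1.5 times under some alternative; the order of the groups in the comparison of culture with cells in vivo held in every alternative run. With all called peaks there were 14 regions specific to AnaVI, 0 to CatVII Rxra cKO, 0 to CatVII Rxra WT, 254 to corpses against medium, 3 to Rxra WT against cKO under corpses, and 5 to BEL and 1 to untreated corpses. With lists of 50% of the length the counts were 0 for CatVII wild type, 1 for CatVII Rxra cKO, 3 for corpses and 1 for medium, 5 for cKO under corpses, 15 for BEL and 1 for untreated corpses, and 25 for culture and 15 for cells in vivo. When a peak had to cover at least 50% of the merged region they were 0 for CatVII and 2 for AnaVI, 0 for CatVII Rxra cKO and 0 for CatVII Rxra WT, 1 for Rxra WT against cKO under corpses, 66 for BEL, and 14 for culture and 2 for cells in vivo. A window of 10 kb upstream gave 25 for culture. Stored tags left 12 for CatVII Rxra cKO and 19 for CatVII Rxra WT (P42), 51 and 49 for cKO and Rxra WT under corpses and 16 and 7 for BEL and untreated corpses (Phago), and 24 and 20, and 30 and 11 (NonPhago). The cause of these moves was not tested, although fewer libraries make the rule of presence easier to meet.

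Leaving out 1 replicate gave 1 to 6 regions for CatVII and 6 to 22 for AnaVI, 3 to 24 for CatVII Rxra cKO and 2 to 16 for CatVII Rxra WT, 7 to 10 for corpses and 2 to 12 for medium, 9 to 14 for cKO and 8 to 14 for Rxra WT under corpses, 8 to 17 for BEL and 0 to 2 for untreated corpses, and 39 to 49 for culture and 26 to 47 for cells in vivo. Whether replicate numbers pair the samples could not be settled. Correlations of same-numbered deviations were -0.04 to 0.10, but stored numbers repeat, so the numbers in the labels need not be the real pairing. With the replicate block, only numbers present in both groups entered, and the counts were 7 for CatVII, 4 for CatVII Rxra WT, 14 for corpses against medium and 11 for Rxra WT against cKO under corpses; the other 8 stayed within 1.5 times.

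Of 25 windows without overlap, 14 stayed so with the 10 kb window, 8 with all called peaks, 6 with lists of 50% of the length and 25 with the block. Differences that turned sign were those of Itga1 (0.17, CatVII minus AnaVI) and Itgb3bp (-0.25, cKO minus Rxra WT) with the shorter lists, of Itga8 (1.75, corpses minus medium), Itga1 (0.67) and Itgb4 (1.58, both cKO minus Rxra WT) with all called peaks, and of Plec (1.00) within Phago-tagged libraries. The cause was not tested.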
